A study of Rattus norvegicus with 5 samples.

Results

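The nuclei described here were neurons of the rat ventral tegmental area (VTA) with at least 1 transcript of *Slc17a8* and at most 1 of *Slc17a6*. There were 331 of them among 10273 neurons and 22084 nuclei that passed the quality filters. A nucleus counted as a neuron with at least 1000 UMIs (unique molecular identifiers, each marking 1 captured transcript), more than 200 and fewer than 5000 genes, less than 5% mitochondrial UMIs, at least 2 of the 6 neuronal genes *Nyap2*, *Rbfox3*, *Syt1*, *Snap25*, *Celf4* and *Grin2b*, and fewer than 10 UMIs of the oligodendrocyte gene *Mog* per 10000. The single-nucleus libraries came from 5 adult male Sprague-Dawley rats, 1 library per rat, each made from bilateral VTA punches that were combined after flash-freezing. The sample labels give saline as the treatment of all 5 rats, whereas the paper calls them drug-naïve, and there was no other condition. Comparisons were therefore made within rats, between the *Slc17a8* neurons and 1654 neurons of the same rats with 0 *Slc17a8* and at most 1 *Slc17a6* UMI, chosen as the 5 closest in UMI total to each. Neurons called *Slc17a8*-negative met the same limit on *Slc17a6*, so that nuclei with more than 1 detected *Slc17a6* UMI are in neither group. Neurons that transcribe *Slc17a6* but had at most 1 UMI of it captured can be in either group.

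*Slc17a8* encodes VGLUT3, a vesicular transporter that loads glutamate into synaptic vesicles. Unlike its relatives VGLUT1 (*Slc17a7*) and VGLUT2 (*Slc17a6*), it is known mainly from neurons that also use another transmitter, such as serotonergic neurons of the raphe nuclei, cholinergic interneurons of the striatum and a class of forebrain GABA interneurons, and from inner hair cells of the ear. The median and dorsal raphe nuclei lie close to the VTA, and raphe neurons with VGLUT3 project into it.

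The libraries were uneven. They held 10193355 to 88576210 UMIs, the lowest in rat 3 and the highest in rat 2, and contributed 24, 143, 66, 48 and 50 *Slc17a8* neurons from rats 1 to 5. Their median UMI totals per rat ran from 1923.5 in rat 1 to 11598 in rat 4, and over all rats the median was 5135 in *Slc17a8* neurons and 5138.5 in the matched neurons. In rat 1, 18 of the 24 came from clusters of nuclei with few UMIs, and in rat 3, 42 of the 66 came from a cluster made mostly of that library. Libraries shared 12 neuron barcodes, 1 of them belonging to a *Slc17a8* neuron. A doublet caller marked 0 to 0.219% of nuclei per library, so few that it may not have worked. No nuclei were removed on this ground, and doublets may remain among them.

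The *Slc17a8* neurons made up 2.32%, 2.95%, 4.22%, 3.55% and 3.37% of neurons in rats 1 to 5, or 3.22% of all neurons (95% exact interval 2.89 to 3.58, counting error only). With no limit on *Slc17a6*, a *Slc17a8* UMI was detected in 2.51%, 3.06%, 4.41%, 3.84% and 3.44%. Among 6185 oligodendrocyte nuclei, 39 had a UMI of the gene, which is 0.631% (0.449 to 0.861), and none had 2. These nuclei were chosen to have few of the neuronal genes of the rule above, so those with much free neuronal RNA can be missing. The share can therefore understate free RNA, as can the other oligodendrocyte shares given below. The oligodendrocytes were somewhat shallower, with a median of 2803 UMIs against 3436 in neurons. When every nucleus was thinned to 1000 UMIs, the mean share over rats fell from 3.28% ± 0.707 to 1.39% ± 0.674 for neurons within the *Slc17a6* limit and from 0.503% ± 0.318 to 0.155% ± 0.188 in oligodendrocytes (SD, n = 5). In every rat, the share of all nuclei as deposited was higher in neurons than in oligodendrocytes. Relative to all UMIs, *Slc17a8* reached 0.0797 to 0.538 per 10000 in neurons of each rat and 0 to 0.0282 in oligodendrocytes. It reached 0.0555 to 0.132 in barcodes of fewer than 100 UMIs, which hold mostly free RNA. In every rat, the level in these barcodes was above that in oligodendrocytes. By rat, neurons stood at 0.0797, 0.150, 0.538, 0.155 and 0.122 and these barcodes at 0.0719, 0.0555, 0.132, 0.0760 and 0.122, so that the levels were close in rats 1 and 5.

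**Figure D1:**
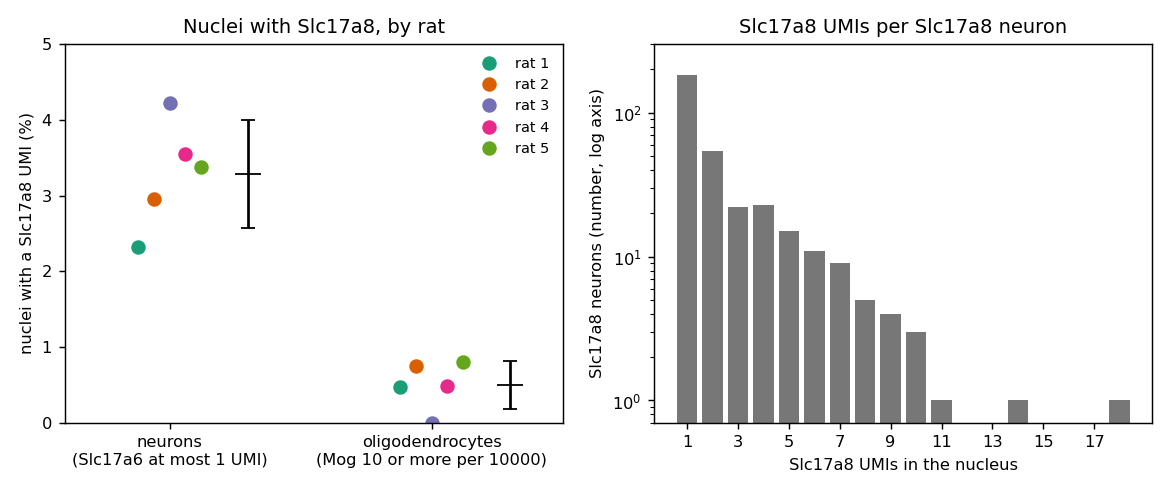
Left, the percentage of neurons with a *Slc17a8* UMI and at most 1 *Slc17a6* UMI, and of oligodendrocytes with a *Slc17a8* UMI, 1 point per rat, with mean and SD beside the points. Right, the number of *Slc17a8* neurons (log axis) with each number of *Slc17a8* UMIs. The 5 rats lie between 2.32% and 4.22% in neurons and at or below 0.805% in oligodendrocytes, and 182 of the 331 neurons held 1 UMI.

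The choice of nuclei rested on few molecules. Of the 331 neurons, 182 held 1 *Slc17a8* UMI, 149 held 2 or more, 50 held 5 or more, and the highest held 18. Those with 1 UMI were also the shallower nuclei, with a median total of 3970.5 UMIs against 7385 in those with 2 or more. *Slc17a6* was at 0 in 301 and at 1 UMI in 30. Just outside the limit were 15 neurons with *Slc17a8* and 2 or more *Slc17a6* UMIs, 7 of which had exactly 2. At the neuronal threshold, 79 of the neurons had exactly 2 of the 6 genes and 19 further *Slc17a8* nuclei had 1. *Nyap2*, which is among the 6 genes of the rule and so is no independent marker, was detected in 62.8% of the *Slc17a8* neurons, 54.6% of the matched neurons and 1.10% of oligodendrocytes.

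*Slc17a8* neurons were spread over many clusters. The 10273 neurons were clustered without *Slc17a8* into 31 clusters, of which clusters 22, 23, 27, 28 and 30 held no *Slc17a8* neuron. Of the 31, only cluster 26 consisted mainly of them, with 47 of its 49 nuclei. Cluster 25, whose leading genes were the serotonergic markers *Tph2*, *Slc6a4* and *Slc22a3*, held 14 in 63 nuclei (22.2%). Clusters 3, 2, 10 and 11 held 48, 33, 24 and 21 of them, at 4.14% to 7.07% of their nuclei. A further 66 lay in 3 clusters with median totals of 1273.5 to 1460 UMIs. These 3 clusters were also over the limit for glial markers, at 3.66 to 5.53 times the median cluster. Another 32 lay in other clusters high in glial or vascular markers, and 46 in the remaining clusters. The neuronal rule therefore admitted nuclei whose cluster was led by genes of other cell types, and the gene counts below are also given without the clusters over the limits used here, which leave cluster 11 in.

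**Figure D2:**
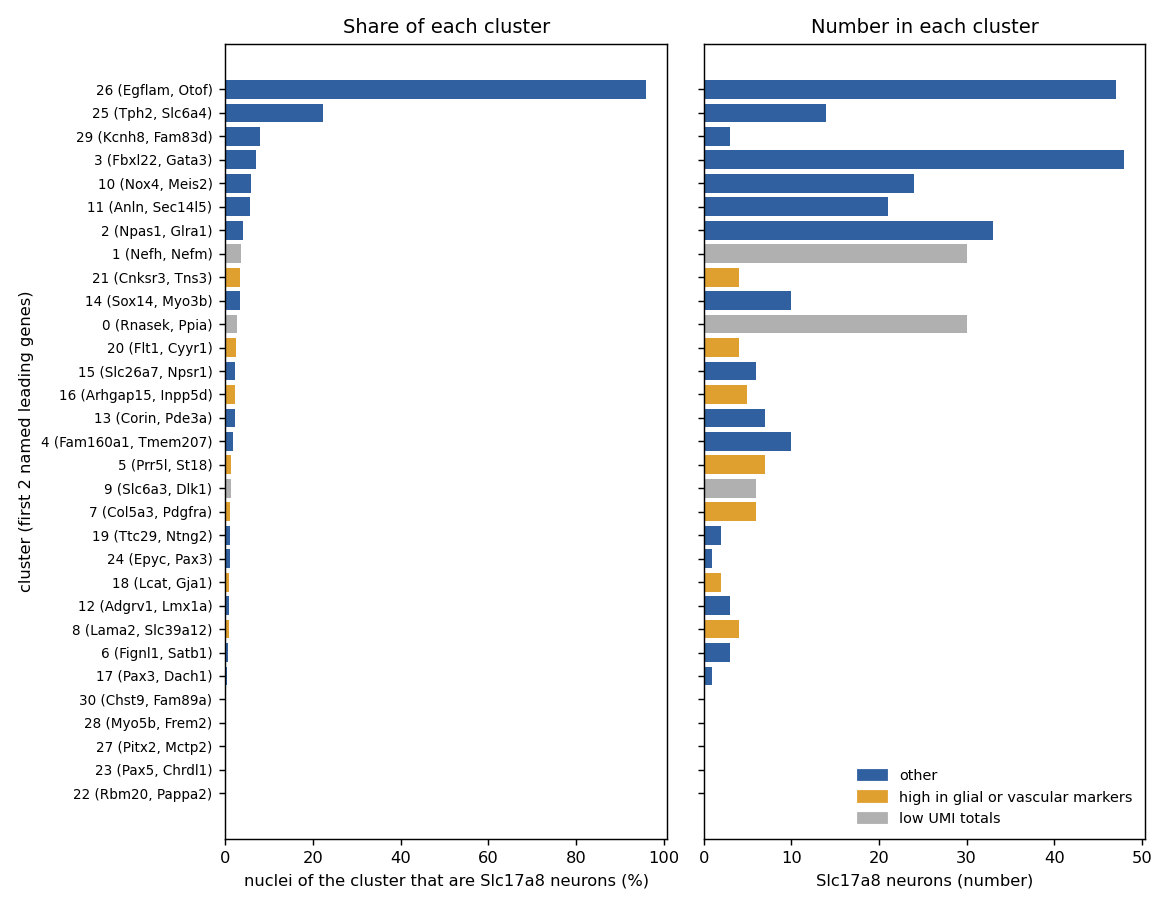
*Slc17a8* neurons as a percentage of the nuclei of each cluster (left) and as a number (right). Clusters are ordered by percentage and coloured by whether they were high in glial or vascular markers or low in UMI totals. The clusters coloured as low in UMI totals were also high in glial markers. Cluster 26 stands at 95.9%, cluster 25 at 22.2% and every other cluster at 7.89% or below.

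Cluster 26 was the group of neurons in which *Slc17a8* was most regular. The transcript was found with 2 or more UMIs in 44 of the 47, at a mean of 5.11 UMIs per nucleus, and these were deep nuclei with a median of 10499 UMIs. It reached 4.98, 5.19 and 4.14 UMIs per 10000 in rats 2, 4 and 5, which contributed 31, 9 and 7 neurons. Rats 1 and 3 contributed none. Against all other neurons, the genes that stood out in it were *Egflam* (the matrix protein pikachurin) with 4.25 UMIs per 10000 against 0.226, *Otof* (otoferlin, the calcium sensor of vesicle release in inner hair cells) with 1.87 against 0.112, and *Rxfp1* (a relaxin receptor) with 5.19 against 0.522. *Adamts2*, a procollagen protease, stood at 4.42 against 0.668 and *Cacna2d1*, a calcium channel subunit that binds gabapentin, at 22.7 against 3.89. These values are a description, since such genes also defined the cluster. *Rxfp1* was detected in 42 of the 47, *Otof* in 38 and *Egflam* in 30.

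GABA and VGLUT1 markers were low in cluster 26, whereas monoamine genes were detected in most of its neurons, which were deep. At least 2 of *Th*, *Slc6a3*, *Slc18a2* and *Ddc* were found in 37 of the 47, and *Tph2*, *Slc6a4* or *Fev* in 24. In the matched neurons of rats 2, 4 and 5, the first share was 63.8%, 41.25% and 44.0%. The second was 13.3%, 5.83% and 7.60%. Those neurons were matched to all *Slc17a8* neurons of the rat and not to cluster 26 alone. Over all nuclei of cluster 26, *Tph2* was at 2.42 UMIs per 10000, below cluster 25 alone (48.7). *Gad1*, *Gad2* and *Slc32a1*, which make and load GABA, had 5, 11 and 5 UMIs in all over the 47 neurons, and at least 1 of them was detected in 11. *Slc17a7* had 1 UMI, and *Slc17a6*, which the rule held to at most 1 UMI per nucleus, had 2. *Slc18a2*, the vesicular monoamine transporter, was detected in 36 neurons at 1.99, 2.31 and 2.25 UMIs per 10000 in rats 2, 4 and 5, and *Lmx1b*, a transcription factor of serotonergic and dopaminergic neurons, in 35. *Tph2*, which makes serotonin, was detected in 20 at 2.84, 0.479 and 4.14 UMIs per 10000 in those rats, and the serotonin transporter *Slc6a4* in 11, with 0 UMIs in rat 4. *Th* and *Slc6a3*, the dopamine synthesis enzyme and transporter, stood at 0.489 and 0.427 per 10000, which is below their means of 2.50 and 2.86 in the matched neurons. Over all nuclei of clusters 2, 13 and 14, where *Gad1* was at 1.54 to 3.85, they stood at 0.498 to 0.563 and 0.451 to 0.520. They were highest in cluster 9, at 28.1 and 39.9. The neuropeptide galanin (*Gal*) had 19 UMIs in the cluster, all in rat 2.

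The 14 *Slc17a8* neurons of the serotonergic-like cluster 25 came from rats 1, 3, 4 and 5, with 7 from rat 3. Their transmitter genes were close in level to those of the 49 *Slc17a8*-negative neurons of the cluster. *Tph2* was at 49.4 UMIs per 10000 against 48.5, *Slc6a4* at 7.85 against 9.95 and *Slc18a2* at 5.19 against 4.83. *Th* was at 0.507 against 0.528. *Il1rapl2*, a synaptic adhesion protein of the interleukin-1 receptor family, was at 33.8 per 10000 against 1.54 and was detected in 8 of the 14. Only rat 3 had at least 5 nuclei of both kinds, with 26.6 against 2.80 per 10000, so these differences were not tested. Clusters 25 and 26 were not separated at every setting. At a clustering resolution of 1.0 in place of 1.5, 62 and 49 of their nuclei formed 1 cluster of 111 with 61 *Slc17a8* neurons.

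In clusters 3 and 11, 16.7% and 23.8% of *Slc17a8* neurons had a serotonergic gene, against 4.55% and 8.31% of their *Slc17a8*-negative nuclei. The trait was not particular to them. The share was 51.1% in cluster 26, 31.8% in the clusters with few UMIs (14.4% of negative nuclei) and 18.2% in cluster 2 (6.33%). It was 21.9% in the glial or vascular clusters (10.6%), 13.0% in the remaining clusters (7.26%) and 4.17% in cluster 10 (7.18%). These groups differ in depth, and their nuclei with and without *Slc17a8* were not matched for depth or rat. Rat 3 supplied 505 of the 679 nuclei of cluster 3 and 42 of its 48 *Slc17a8* neurons. Within rat 3, these had 6.74 *Tph2* UMIs per 10000 against 1.04 in the *Slc17a8*-negative nuclei of the cluster. *Rxfp1* was at 4.21 against 0.761, *Gata3* (a transcription factor of serotonergic and some GABA neurons) at 5.33 against 1.76, *Lmx1b* at 1.31 against 0.319 and *Cacna2d1* at 15.2 against 5.17. *Gad2* was lower, at 0.561 against 1.94, and a GABA gene was detected in 22.9% of the 48 against 52.3% of the negative nuclei. *Tph2* was concentrated in few nuclei, with 75 UMIs in 8 of the 48. In cluster 11, *Egflam* was at 1.58 against 0.149, *Tph2* at 1.84 against 0.207 and *Gata3* at 2.72 against 0.454 per 10000, higher in both rats with enough nuclei (2 and 3). Cluster 11 was also led by *Anln* and *Mog*, and its oligodendrocyte markers were 2.72 times the median cluster, just under the limit of 3 used here to set a cluster apart.

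The *Slc17a8* neurons of clusters 2 and 10 carried GABA genes. In cluster 2, which was led by *Npas1*, a GABA gene was detected in 25 of 33 (75.8%), against 83.9% of the *Slc17a8*-negative nuclei. These neurons had 4.71 *Glis3* UMIs per 10000 (a zinc finger transcription factor) against 0.127 in the *Slc17a8*-negative nuclei, with 5.60 against 0.127 in rat 2 and 5.41 against 0.160 in rat 5. *Rfx4*, a transcription factor of the ventral neural tube, was at 3.55 against 0.106, *Tacr3*, the neurokinin B receptor, at 3.18 against 0.199 and *Chrna5*, a nicotinic receptor subunit, at 1.26 against 0.0341. Each was higher in both rats with enough nuclei, but in only part of the group, since *Glis3* was detected in 16 of 33, *Rfx4* in 13 and *Tacr3* in 10. Also higher in both rats were *Tead1* (9.55 against 0.780), *Nfib* (8.16 against 0.667), *Cd44* (0.895 against 0.00379) and *Thbs4* (0.597 against 0.00758). Whether nuclei of other cell types contributed to these genes was not tested. The cluster's own leading gene *Npas1* was at 0.365 against 0.498.

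In cluster 10, led by *Nox4* and *Meis2*, all 24 *Slc17a8* neurons had a GABA gene, against 89.1% of the *Slc17a8*-negative nuclei. They held 4.65 *Penk* UMIs per 10000 (the enkephalin precursor) against 2.18, and 9.52 of the mu opioid receptor *Oprm1* against 4.79. *Penk* was at 7.74, 1.88 and 1.72 in rats 2, 4 and 5 against 2.37, 0.894 and 2.22, so that rat 5 went the other way. *Nfib*, a developmental transcription factor, was at 11.5 against 1.35, the calcium channel subunit *Cacna2d3* at 10.5 against 1.11 and somatostatin (*Sst*) at 2.20 against 0.237, each higher in 3 of 3 rats. *Egflam* had 0 UMIs in these 24 neurons. All differences within a cluster given here are a description, and their genes were chosen after their values were seen. The nuclei compared were not matched for depth or rat, and detection depends on depth. *Slc17a8* neurons of clusters 2, 3 and 10 had median totals of 9388, 2374.5 and 8467 UMIs. All nuclei of those clusters had 7948, 1928 and 5471. In cluster 11 the medians were 4064 and 4188.

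**Figure D3:**
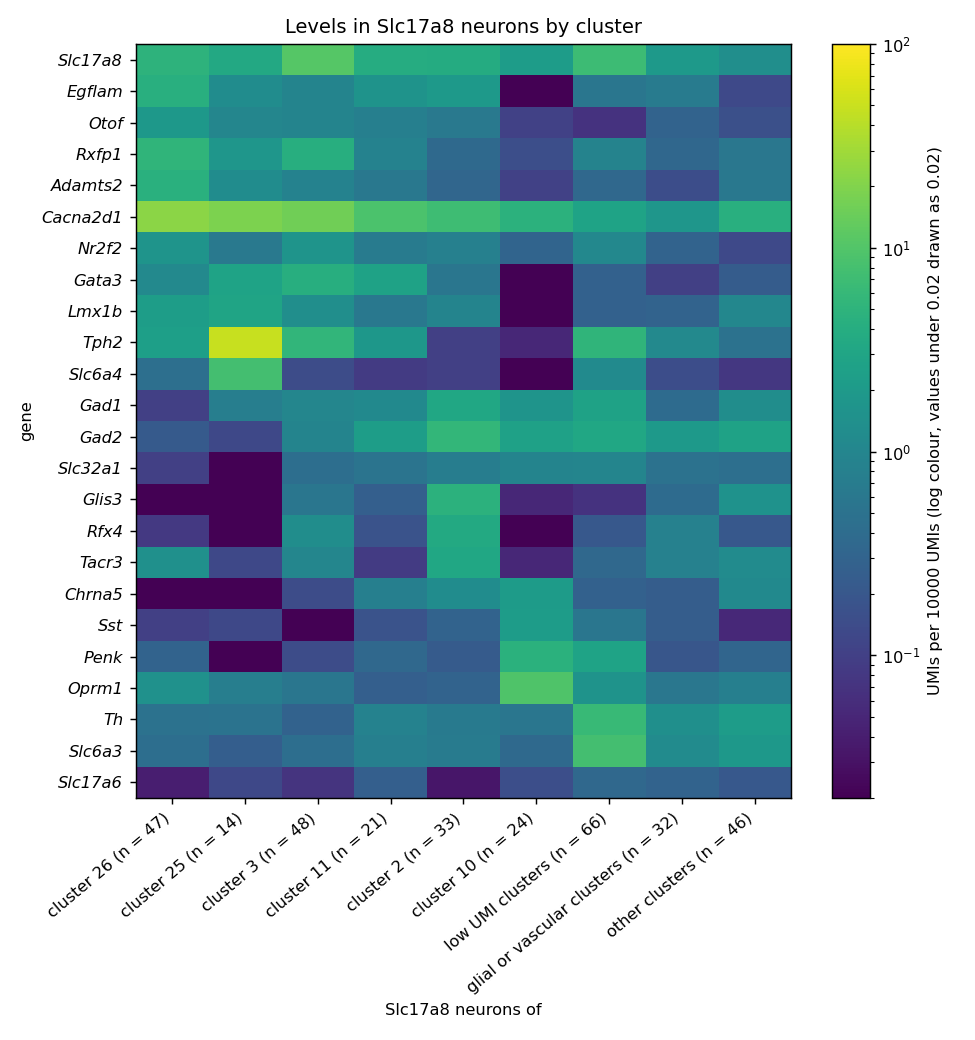
Levels of 24 genes (rows) in the *Slc17a8* neurons of each cluster or group of clusters (columns), as UMIs per 10000 on a log colour scale. *Tph2* is at 49.4 in cluster 25, *Glis3* at 4.71 in cluster 2 and *Oprm1* at 9.52 in cluster 10, and *Cacna2d1* is at 22.7 in cluster 26.

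The remaining *Slc17a8* neurons lay in clusters with few UMIs, in other clusters high in glial or vascular markers, or elsewhere. As a description of the gene that chose them, *Slc17a8* stood at 6.79, 1.93 and 1.32 UMIs per 10000 in the 3 groups, whose median totals were 1699.5, 5116 and 8188 UMIs. Among the 46 elsewhere, *Egflam* was at 0.132 UMIs per 10000 against 0.202 in their *Slc17a8*-negative neighbours. In the clusters with few UMIs, *Tph2* was at 5.18 against 1.06 and *Penk* at 2.80 against 1.17, while *Th* was at 6.16 against 10.6. Whether nuclei with 1 *Slc17a8* UMI expressed the gene or held free RNA was not tested. In oligodendrocytes, which were chosen to have few neuronal genes, 0.631% of nuclei held 1 UMI.

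To find which genes differed between *Slc17a8* neurons and other neurons of the same rat and depth, UMIs were summed per rat and group and tested with edgeR, with the rat as a block. Of 10338 genes tested, 92 were higher (0.89%) and 251 lower (2.43%) in *Slc17a8* neurons at an adjusted p under 0.05, and the median log2 fold change of all genes was -0.03. Of the 92, 50 were higher in 5 of 5 rats, and of the 251, 194 were lower in 5 of 5. Over all genes, 4.38% were higher and 7.45% lower in every rat. With 2 or more *Slc17a8* UMIs required, 137 of 8543 were higher (1.6%) and 326 lower (3.82%). Without the clusters high in glial or vascular markers or low in UMIs, 136 of 9792 genes were higher (1.39%) and 223 lower (2.28%), including 80 of the 92 and 160 of the 251. The counts fell without cluster 26: 33 genes were higher and 56 lower. Rat 2 had the most *Slc17a8* neurons, and without it 48 were higher and 74 lower. Without rat 1, the counts rose to 208 and 365.

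The named genes that were higher included leading genes of cluster 26, whose nuclei are among those compared. *Egflam* stood at 0.801, 2.23, 0.847, 1.04 and 1.64 UMIs per 10000 in the *Slc17a8* neurons of rats 1 to 5, against 0.248, 0.220, 0.148, 0.150 and 0.300 in the matched neurons. The groups did not overlap, which held for 19 higher (0.184%) and 55 lower genes (0.532%) of 10329. Its log2 fold change was 2.79 ± 0.20 (SE; adjusted p = 2.2e-15, edgeR), and it was detected in 21.5% of *Slc17a8* neurons and 5.56% of matched ones. *Nr2f2*, an orphan nuclear receptor that marks several interneuron lineages, also did not overlap, at 0.695 to 1.26 against 0.0475 to 0.471 (log2 fold change 2.16 ± 0.24; adjusted p = 6.8e-08). *Rxfp1* rose by 1.65 ± 0.16, the EGF-domain gene *Egfem1* by 1.52 ± 0.18 and *Cacna2d1* by 1.46 ± 0.17 on the log2 scale. *Cacna2d1* was at 1.26 against 1.14 per 10000 in rat 1 and at 6.56 to 16.1 against 2.54 to 4.37 in the other rats. *Otof*, named after its values were seen, rose by 2.74 and was at 0 in both groups of rat 1.

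Other genes of the same rule had other known roles. The diacylglycerol kinase *Dgkk* rose by 2.04 ± 0.47, the kinase *Tec* by 1.81 ± 0.35 and the growth factor *Bdnf* by 1.29 ± 0.21 on the log2 scale, and none of these overlapped between groups. *Bdnf* was at 0.343, 0.617, 0.565, 0.847 and 0.445 UMIs per 10000 against 0.273, 0.229, 0.170, 0.325 and 0.211. *Tns1* (tensin 1) rose by 1.90 and *Zim1*, an imprinted zinc finger gene, by 1.30. The rats were uneven in both: *Tns1* was at 2.86 in rat 1 against at most 0.670 elsewhere, and *Zim1* at 1.98 in rat 3 against at most 0.354. *Zfpm1*, a cofactor of GATA factors, rose by 1.43 and *Vwa5b1* by 1.09. *Zfpm1* was not called without rat 3, 4 or 5 (adjusted p = 0.0555, 0.103 and 0.286, edgeR), *Dgkk* without rat 3 (0.0541) and *Tec* without rat 4 (0.0591) or cluster 25 (0.0963). *Penk* rose by 1.28 ± 0.23 (adjusted p = 2.3e-04, edgeR), from 1.12, 0.522, 0.193, 0.119 and 0.117 per 10000 in the matched neurons of rats 1 to 5 to 1.49, 1.24, 0.226, 0.433 and 0.584.

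**Figure D4:**
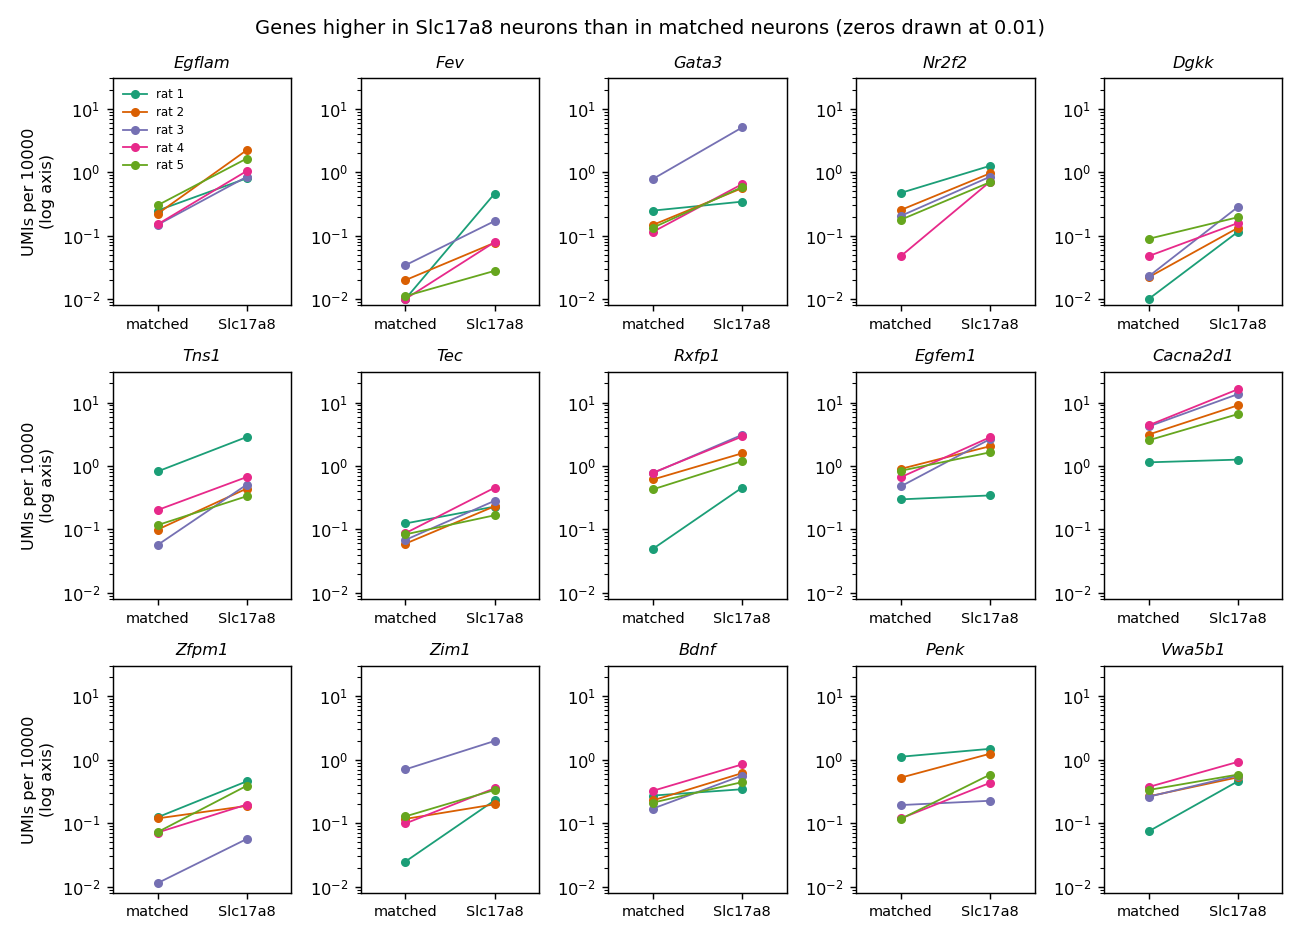
Levels of the 15 genes with the largest increase among those called at an adjusted p under 0.05 (edgeR) and higher in every rat. Values are UMIs per 10000 (log axis) in matched and *Slc17a8* neurons, 1 line per rat. Every line rises. *Gata3* and *Zim1* are highest in rat 3 and *Tns1* in rat 1, in both groups.

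Part of the serotonergic genes were higher in *Slc17a8* neurons. Of 14 genes of serotonergic neurons, 10 passed the filter on low counts, 4 of these rose and none fell, with a median log2 fold change of 1.54, against 0.89% of all genes higher and 2.43% lower. Those that rose were the transcription factors *Fev* (2.70 ± 0.68; adjusted p = 0.0122), *Gata3* (2.17 ± 0.20), *Gata2* (2.03 ± 0.36) and *Lmx1b* (1.05 ± 0.19). *Gata2* was higher in 4 of 5 rats and *Lmx1b* in 3, and both were at 0 in the *Slc17a8* neurons of rat 1. *Gata3* was at 5.08 UMIs per 10000 in rat 3 and 0.343 to 0.650 in the other rats, against 0.784 and 0.115 to 0.248 in the matched neurons. *Fev* rested on 19 UMIs in 16 neurons, was not called without rat 4 (adjusted p = 0.0929, edgeR) and did not pass the filter on low counts without rat 1, 2 or 3. *Tph2* was at 6.06, 1.35, 16.4, 2.15 and 4.17 UMIs per 10000 against 0.719, 0.487, 1.58, 0.0594 and 0.295, higher in 5 of 5 rats, but missed the threshold with a log2 fold change of 3.12 ± 0.56 (adjusted p = 0.0927, edgeR). *Slc6a4* did not overlap between groups, at 0.363 to 1.94 against 0.00396 to 0.298, and also missed it (2.32 ± 0.71; adjusted p = 0.304). Without clusters high in glial or vascular markers or low in UMIs, 7 of 11 tested were called higher, against 1.39% of all genes, the additions being *Tph2*, *Slc6a4* and *Maob*, a monoamine oxidase. *Gchfr*, which regulates the cofactor synthesis that serotonin and dopamine production need, rose by 3.16 (named after its values were seen).

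By detection, *Tph2*, *Slc6a4* or *Fev* was found in 29.2%, 27.3%, 24.2%, 22.9% and 38.0% of *Slc17a8* neurons of rats 1 to 5. In the matched neurons it was 21.0%, 13.3%, 4.85%, 5.83% and 7.60%. The groups did not overlap, and the difference was 17.8 percentage points ± 8.21 (SD, n = 5; exact two-sided permutation p = 0.062, the smallest that 5 rats allow; 0.3125 adjusted over 5 shares). It was 17.6 without clusters high in glial or vascular markers or low in UMIs, 11.2 without clusters 25 and 26 and 11 within the same cluster and rat. In oligodendrocytes of all rats together the share was 6.01%, and the matched neurons of rats 3 and 4 lay below it. Whether the shares in matched neurons came from free RNA was not tested. Of the 92 *Slc17a8* neurons with a serotonergic gene, 39 also had a GABA gene, against 171 of all 331 and 22.0% of oligodendrocytes.

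Several dopaminergic genes were lower. Of 16 genes of dopamine neurons, 12 were tested, 7 fell and none rose, against 2.43% of all genes lower and 0.89% higher, with a median log2 fold change of -1.02. *Th* was at 3.09, 2.02, 0.621, 0.630 and 0.528 UMIs per 10000 against 3.67, 3.44, 1.69, 1.44 and 2.24, lower in 5 of 5 rats, and fell by 1.10 ± 0.18 on the log2 scale. *Slc6a3* fell by 1.27 ± 0.18, the transcription factors *Lmx1a* and *Sox6* by 1.68 ± 0.23 and 1.49 ± 0.21, the retinaldehyde dehydrogenase *Aldh1a1* by 1.20, the autoreceptor *Drd2* by 1.36 and the GDNF receptor *Ret* by 0.82. *Slc18a2*, which dopaminergic and serotonergic neurons share, was at a log2 fold change of 0.47 ± 0.15 (adjusted p = 0.0857, edgeR) and was higher in 5 of 5 rats. Counted by detection, 2 or more of *Th*, *Slc6a3*, *Slc18a2* and *Ddc* were found in 48.4% ± 19.3 of *Slc17a8* neurons and 44.8% ± 12.6 of matched neurons, higher in 3 of 5 rats (exact permutation p = 0.438), against 17.0% of oligodendrocytes. The difference of 3.62 percentage points depended on the comparison nuclei and on the rats. Within the same cluster and rat it was 8.57 (exact permutation p = 0.062, the smallest that 5 rats allow), and without clusters 25 and 26 it was -1.54. Leaving out each rat gave 0.450 to 6.79.

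GABA, cholinergic and VGLUT1 markers were compared by level and by detection, and the tests of detection could not reach 0.05 with 5 rats. None of the 6 genes of GABA synthesis and transport was called, and *Gad1*, *Gad2* and *Slc32a1* were at log2 fold changes of -0.29, -0.21 and -0.41. A GABA gene was detected in 70.8%, 62.9%, 18.2%, 43.8% and 62.0% of *Slc17a8* neurons of rats 1 to 5, against 65.5%, 64.1%, 45.5%, 64.2% and 69.6% (difference -10.2 percentage points ± 13.5, exact permutation p = 0.188), and in 22.0% of oligodendrocytes. The difference was -3.59 without cluster 26, -3.13 without clusters 25 and 26, -5.96 without rat 3, -6.41 without clusters high in glial or vascular markers or low in UMIs, and -12.3 within the same cluster and rat (exact permutation p = 0.062). The share in *Slc17a8* neurons of rat 3 lay below that in oligodendrocytes. *Chat* or *Slc18a3*, the markers of cholinergic neurons, were found in 3 of the 331 neurons and 37 of the 1654 matched ones (exact permutation p = 0.5). *Slc17a7* was found in 5 and 29 (p = 1, the same exact test). Of 10 genes of forebrain interneurons with cholecystokinin, 8 were tested, none rose and *Vip* fell, with 1.21 as the log2 fold change of *Sncg* (adjusted p = 0.47, edgeR).

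Several receptors and channels moved, and the counts of each list stand beside 0.89% of all genes higher and 2.43% lower. Of 16 peptide and cannabinoid receptors tested, *Oprm1* and the GLP-1 receptor *Glp1r* rose and the thyrotropin-releasing hormone receptor *Trhr* and prolactin receptor *Prlr* fell. *Oprm1* was at 0.572, 1.47, 0.452, 2.34 and 2.22 UMIs per 10000 against 0.422, 0.886, 0.364, 0.744 and 0.885, and rose by 1.09 ± 0.17 (adjusted p = 3.3e-05, edgeR). *Glp1r* rested on 28 UMIs in 3.93% of *Slc17a8* neurons, against 1.03% of matched neurons (log2 fold change 2.31 ± 0.60; adjusted p = 0.0175). It was higher in rats 2, 3 and 5, at 0 in both groups of rat 1 and at 0 against 0.0277 per 10000 in rat 4, and 17 of its UMIs were in the *Slc17a8* neurons of cluster 2. The alpha-1B adrenergic receptor *Adra1b* rose by 1.60 ± 0.22 and the glycine receptor subunit *Glra2* by 0.95 ± 0.16. The serotonin receptors *Htr2a* and *Htr4* fell, by 1.95 and 0.80, as did the nicotinic subunits *Chrna6* and *Chrnb3* that mark dopamine neurons, by 1.40 and 1.60.

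The counts of the next lists also stand beside 0.89% of all genes higher and 2.43% lower. Among potassium channel genes, *Kcnq5*, *Kcnh7* and *Kcnt2* rose, by 1.13, 0.82 and 0.78 on the log2 scale, and *Kcnd3*, *Kcnh5*, *Kcnip1* and *Kcnj6* fell, by 0.71 to 1.18. *Kcnj6* and *Kcnd3* are channels known from dopamine neurons. Among 19 calcium and sodium channel genes, *Cacna2d1* alone was called. Of 15 neuropeptides and granins, *Penk*, *Sst*, *Chgb* and *Scg2* rose and *Vip* fell, and *Sst* was higher in 3 of 5 rats only. Without clusters high in glial or vascular markers or low in UMIs, *Chgb* (0.36; adjusted p = 0.32, edgeR) and *Scg2* (0.43; adjusted p = 0.13) were not called. Among 22 glutamate receptor genes, the kainate receptor subunits *Grik2* and *Grik3* moved apart, with 0.63 and -1.68, but without those clusters *Grik2* was not called (0.41; adjusted p = 0.57, edgeR). Of 13 GABA receptor genes, *Gabra2* alone was called, at 0.56. Of 44 regional transcription factors, 4 rose (*Gata2*, *Gata3*, *Lmx1b* and *Nr2f2*) and 8 fell, among them *Pax5* (-1.84), *Bnc2* (-1.70), *Foxp2* (-1.29) and *Satb1* (-1.13), and the median was -0.28. Of 51 synaptic and guidance adhesion genes, *Cntn3* and *Nrp2* rose and 8 fell. The neurexin *Nrxn3* fell by 1.12 ± 0.19, from a mean of 77.5 UMIs per 10000 in matched neurons to 37.0. Among vesicle release genes, *Sv2c* was the only call of 19, at -1.48.

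The genes with the largest decreases were rare transcripts, several of them known from glia, vessels or matrix. *Efemp1* (fibulin-3) had 0 UMIs in the *Slc17a8* neurons and 117 in the matched neurons, at least 7.84-fold lower against a floor of 3 counts over the group. *Synpo2* (synaptopodin 2) was at 0 to 0.114 UMIs per 10000 against 0.223 to 0.373 and fell by 3.28 ± 0.46 (adjusted p = 1.7e-06, edgeR). *Fam160a1*, a leading gene of clusters 4 and 6 beside *Drd2* and *Ddc*, fell by 2.69 ± 0.33. *Lmod1*, a smooth muscle actin nucleator, the junction gene *Cgnl1*, the matrix gene *Tnc* and the Wnt receptor *Ror2* fell by 2.31 to 2.69 but held 3, 3, 6 and 4 UMIs in *Slc17a8* neurons. *Ppp4c* and the unnamed loci *AABR07054126.1* and *AABR07058658.1* completed the rule, at -2.22, -2.38 and -2.37. With the DESeq2 Wald test, 6 of the 10 were not called (*Lmod1*, *Cgnl1*, *Tnc*, *Ror2*, *Ppp4c* and *AABR07058658.1*; adjusted p = 0.0784 to 0.192). Of these 10, *Synpo2*, *Fam160a1* and *AABR07054126.1* were still lower without clusters high in glial or vascular markers or low in UMIs, and the others did not pass the filter on low counts there.

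Levels of other cell types moved with these calls. Summed over their lists, precursor markers were at 0.118 to 1.14 UMIs per 10000 in *Slc17a8* neurons and 0.579 to 3.1 in matched neurons, and astrocyte markers at 1.28 to 6.75 and 1.81 to 14.5. *Slc1a3*, *Aqp4* and *Pdgfra* fell among the 21 glial and vascular markers tested, and none rose. Without clusters high in glial or vascular markers or low in UMIs, neither *Slc1a3* nor *Aqp4* was called, and the astrocyte transporter *Slc1a2* was higher. Oligodendrocyte markers were at 16.8 to 137 and 15.9 to 109, with 0 of 7 called. Microglial markers were at 0.0565 to 0.686 and 0.265 to 2.98, and vascular markers at 0.0197 to 6.06 and 0.0454 to 1.44. Within rats, precursor markers were lower in every rat, astrocyte markers in all but rat 3 and microglial markers in all but rat 5. Oligodendrocyte markers were higher in rats 1 and 4 and vascular markers in rats 1 and 3, and lower in the other rats. Their part in the genes that fell was not tested.

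To ask what set *Slc17a8* neurons apart from their nearest kin, comparison nuclei were also drawn from the same cluster and rat. This left 278 of the 331, since 53, 45 of them in cluster 26, had no partner. The 278 had 1297 partners, because some clusters ran short, so clusters did not weigh alike in the summed groups. Cluster 25, where *Tph2* was at 48.7 UMIs per 10000, held 14 *Slc17a8* neurons in 63 nuclei. Its *Tph2* levels in the groups with and without *Slc17a8* were close, as given above. How much of the differences below came from this weighting was not tested. Of 9497 genes, 33 were higher (0.347%) and 29 lower (0.305%), and 25 of the 33 were also higher in the comparison across clusters. *Tph2* passed here, at 3.33, 0.676, 12.9, 1.24 and 4.17 UMIs per 10000 in rats 1 to 5 against 0.986, 0.208, 4.09, 0.586 and 0.738 (log2 fold change 1.70 ± 0.16; adjusted p = 3.9e-10, edgeR). *Slc6a4* (1.24 ± 0.29), *Slc18a2* (0.91 ± 0.17), *Lmx1b* (1.05 ± 0.23) and *Gata3* (1.23 ± 0.22) passed too. *Slc6a4* and *Slc18a2* were higher in 5 of 5 rats, *Gata3* in 4 and *Lmx1b* in 3. *Egflam*, *Otof*, *Rxfp1*, *Nr2f2* and *Cacna2d1* stayed higher within clusters, by 1.76, 1.87, 1.21, 1.27 and 1.15. Of the 17 named genes that could be fitted within clusters, 8 kept their call and 9 did not, among them *Egfem1* (0.89; adjusted p = 0.968, edgeR), *Dgkk* (1.31; 0.455), *Tns1* (0.98; 0.151), *Tec* (0.81; 0.858), *Zfpm1* (0.23; 1), *Zim1* (0.71; 0.525) and *Vwa5b1* (0.76; 0.320).

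Within clusters, *Rfx4* had the largest fold change of the 33, followed by *Glp1r*, *Gchfr* and *Glis3*. *Rfx4* was at 0.123, 1.54, 0.175, 0.282 and 1.71 UMIs per 10000 against 0.0411, 0.163, 0.0404, 0.131 and 0.194 (log2 fold change 2.75 ± 0.27; adjusted p = 1.3e-09, edgeR), whereas across clusters it was at 1.28 ± 0.54 and missed the threshold (adjusted p = 0.483). *Glis3* was higher in rats 2 to 5 (2.03 ± 0.24). Both genes rested largely on cluster 2. There, 13 *Slc17a8* neurons held 107 of the 155 *Rfx4* UMIs, and 16 held 142 of the 222 *Glis3* UMIs. As above, whether nuclei of other cell types contributed to both genes was not tested. *Glp1r* passed at the edge (2.71 ± 0.66; adjusted p = 0.0498), and *Glra2*, *Kcnq5*, *Kcnt2*, *Adra1b*, *Bdnf* and *Penk* also passed. Of these, *Penk* was higher in 3 of 5 rats and *Bdnf* and *Kcnq5* in 4, all but rat 1. Of the dopaminergic genes that fell across clusters, none was called within clusters, with *Th* at -0.34 and *Slc6a3* at -0.31. *Trhr*, *Kcnip1*, *Nrxn3*, *Cntn5*, *Sema3e* and *Zfhx4* fell in both comparisons, *Trhr* by 2.03 ± 0.44 within clusters. These genes were picked from the list after their values were seen.

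**Figure D5:**
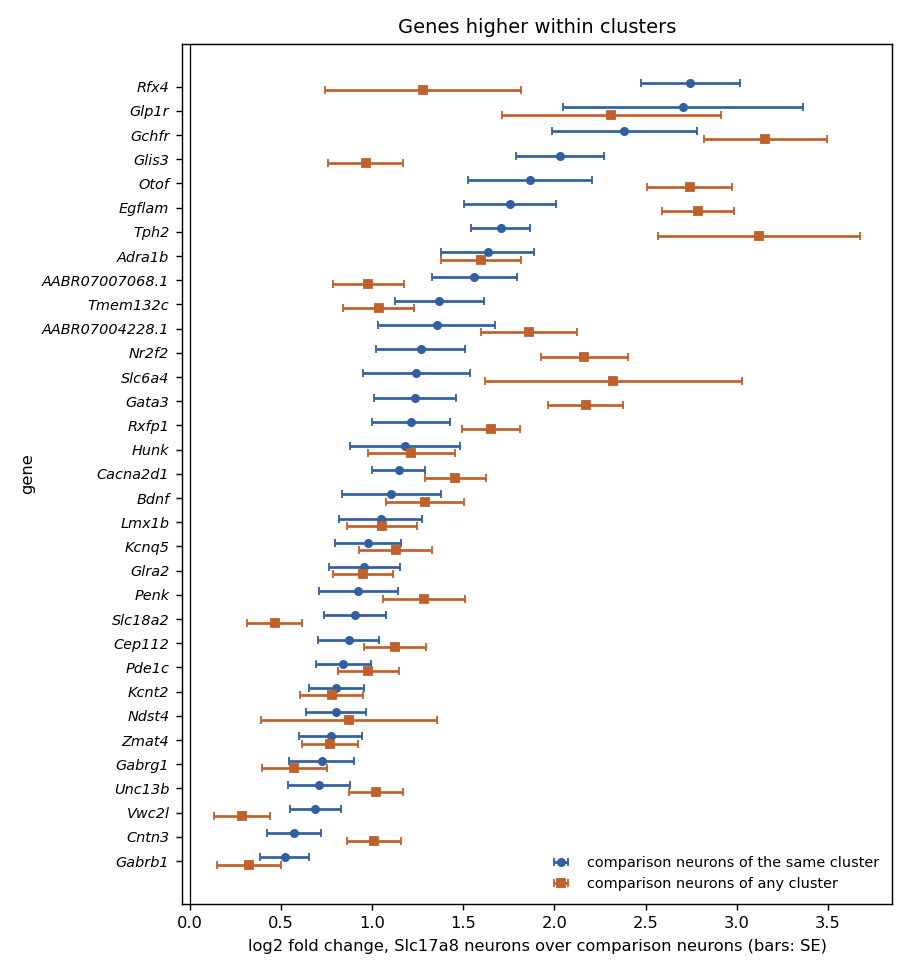
Log2 fold change with SE of the 33 genes higher in *Slc17a8* neurons than in *Slc17a8*-negative neurons of the same cluster and rat (circles), and of the same genes in the comparison across clusters (squares). *Rfx4* and *Glis3* are farther to the right within clusters, and *Tph2*, *Egflam* and *Otof* across clusters.

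Excluding clusters 25 and 26 altogether, 28 genes were higher (0.296%) and 47 lower (0.498%), and 25 of the 28 were among the 92. *Egflam* (1.56), *Gata3* (1.88), *Nr2f2* (1.55), *Penk* (1.42), *Tph2* (2.60; adjusted p = 0.0346, edgeR) and *Oprm1* (1.20) were still higher. Of the 16 named genes that could be fitted, 7 kept their call and 9 did not. Those not called included *Rxfp1* (0.49; adjusted p = 0.918), *Egfem1* (0.61; 0.891), *Tns1* (0.85; 0.330), *Zfpm1* (0.69; 0.839), *Vwa5b1* (0.38; 0.788), *Bdnf* (0.98; 0.0846) and *Zim1* (1.17; 0.0656). *Th* and *Slc6a3* were lower by 0.79 and 0.90.

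Over the 31 clusters, the genes whose mean level followed *Slc17a8* most closely were *Slc7a6os*, *Tph2*, *Adra1b*, *Gata3* and *Egflam*, with Pearson correlations of the log level of 0.703, 0.700, 0.614, 0.603 and 0.600. The clusters differ in size, depth and the rats they come from.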

How the data were processed

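The authors deposited raw UMI counts per gene and barcode for 5 libraries of VTA nuclei, made with Cell Ranger 8.0.1 per the submitters' processing notes, whereas the matrix headers name Cell Ranger 4. The genome build is not given in the sources used here. The libraries held 10193355 to 88576210 UMIs.

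Counts were read in Python 3.11.15. Each *Slc17a8* neuron was matched to the 5 nearest *Slc17a8*-negative neurons of its rat (at most 1 *Slc17a6* UMI) within 20% of its UMI total, each used once; such neurons can hold undetected transcript. Counts were summed per rat and group and compared in edgeR 4.0.16 (quasi-likelihood, robust fit, R 4.3.3) with the rat as a block and Benjamini-Hochberg adjustment; the threshold was 0.05, and standard errors were derived from the fold change and p. Both groups came from the same animals, and their deviations correlated at 0.493 to 0.733 within rats. DESeq2 1.42.0 was an alternative. Shares were compared by exact two-sided sign-flip permutation over rats.

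Neurons were clustered without *Slc17a8* (scanpy 1.11.5, leidenalg 0.10.2; 2000 variable genes, 30 components, 20 neighbours, resolution 1.5). The resolution was chosen after 1.0 had merged clusters 25 and 26, and the limits for clusters high in glial or vascular markers (3 times the median cluster) or low in UMIs (a median under 1500) after the clusters were seen. Fits without given clusters were also added after seeing the data.

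The text names up to 15 genes with the largest increase and 10 with the largest decrease that passed, moved the same way in every rat and had at least 20 UMIs, and lists by their counts. The members and lists were chosen with earlier results of these data known. Each rat is 1 library, and p-values of the paired tests measure how the difference within a rat varied from rat to rat. Exact intervals (95%) cover counting error only. In summed nuclei, fewer transcribing cells and less RNA per cell cannot be told apart. A result on 1 listed gene is not reported here.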

Additional observations from a re-analysis of the deposited data

Results flagged for a closer look

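In groups of 5 rats, 67 sets of values were examined for a rat far from the others, and 14 were so marked; chance marks about 5% of such groups. Rat 3 stood apart in *Slc17a8* over all neurons (0.538 UMIs per 10000), in the share of matched neurons with a GABA gene (45.5%), in *Gata3* (5.08 per 10000 in *Slc17a8* neurons and 0.784 in matched neurons) and in *Zim1* (1.98 and 0.704). Rat 1 stood apart in *Tns1* (2.86 and 0.818), in *Cgnl1* of *Slc17a8* neurons (0.114, from few UMIs) and in the *Slc17a7* difference (4.17 percentage points, 1 nucleus of 24). Rat 2 had the highest *Slc17a7* share of matched neurons (3.64%), rat 4 the highest *Vwa5b1* in *Slc17a8* neurons (0.926 per 10000), and rat 5 the highest *Tnc* and *Ror2* there (0.0834 each).

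The limit of 5000 genes left out 1055 nuclei that otherwise passed the neuronal rule, and 100 of these had *Slc17a8* and at most 1 *Slc17a6* UMI (9.48%; 20, 35, 0, 19 and 26 in rats 1 to 5). Their median total was 20886 UMIs. Relative to all UMIs, the gene stood at 0.229 per 10000 in them and 0.167 in the neurons described above.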

How the results depend on the processing

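The counts of 92 higher and 251 lower genes moved with which nuclei were compared. They were 33 and 29 with comparison nuclei from the same cluster, 33 and 56 without cluster 26, and 28 and 47 without clusters 25 and 26. With no maximum on genes, 200 were higher. Of the lower genes, 81 were called with 1 nearest nucleus, 419 against all 9256 neurons with no *Slc17a8* and at most 1 *Slc17a6* UMI and 85 with the DESeq2 Wald test. Leaving out each rat gave 48 to 208 higher and 74 to 365 lower genes, with 60 and 125 without rat 3, 58 and 126 without rat 4, and 122 lower without rat 5. Without the replicate block, that is ignoring the pairing within rats, 1 gene was higher and 0 lower by edgeR, with 222 of 8762 at an unadjusted p under 0.05.

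The share of neurons with *Slc17a8* and at most 1 *Slc17a6* UMI was 1.45% with 2 or more UMIs required, 4.38% with 4 or more neuronal genes and 1.39% thinned to 1000 UMIs, and 3.05% to 3.52% leaving out each rat. The dopaminergic share difference turned to -1.54 percentage points without clusters 25 and 26. The *Slc17a7* difference turned to -0.296 with 2 or more *Slc17a8* UMIs, -0.589 at 2000 UMIs, -0.403 with 4 or more neuronal genes and -0.379 without clusters high in glial or vascular markers or low in UMIs, and ran from -0.465 to 0.786 leaving out each rat. *Ror2* turned to 0.23 with no maximum on genes (adjusted p = 0.857, edgeR). Of 486 refits of the 25 named genes under 24 settings, 414 kept direction and call, 71 kept direction only and 1 reversed. The causes were not tested.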
